A study of Mus musculus with 2 samples.

Results

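The NADPH oxidase and dual oxidase system is described here through 9 genes: Nox1, Noxa1, Noxo1, Duox2, Duoxa2, Cyba, Cybb, Ncf1 and Ncf4. They were looked up by symbol among the 31053 genes of the expression matrices, and all 9 were listed. The 9 genes had been chosen by earlier results of these data, above all the measured Ncf4 level in the mutant library, so their levels are given as descriptions and no test supports them. The question set for them was whether Ncf4 RNA belongs to epithelial cells, and the levels of all members were read in epithelial and myeloid cells of both libraries. Colonic crypt cells were isolated from C57BL/6 mice at 4 weeks of age and profiled by single-cell RNA sequencing. The Mettl14_cKO library came from M14(f/f);Villin-Cre mice, in which a Cre recombinase driven by the Villin promoter, active in gut epithelial cells, can recombine the floxed alleles. The control library came from M14(f/f) mice, so both groups carry the floxed alleles and differ in the labels by the Cre transgene. M14 was read as Mettl14, a subunit of the enzyme that writes N6-methyladenosine into RNA. Each library held the pooled cells of 3 mice, which leaves 1 library per genotype.

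NADPH oxidases carry electrons from NADPH across a membrane to oxygen and release superoxide or hydrogen peroxide. In phagocytes the membrane part is the heterodimer of Cybb, the catalytic subunit also called gp91phox or NOX2, and Cyba, its partner p22phox. It becomes active when cytosolic proteins, among them Ncf1 (p47phox) and Ncf4 (p40phox), and the GTPase Rac2 join it. Colonic epithelium is known for NOX1, which also uses Cyba and is run by the organizer Noxo1 and the activator Noxa1, and for DUOX2, which releases hydrogen peroxide at the apical surface and needs the maturation factor Duoxa2 to reach it.

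With 1 library per genotype no test between genotypes was possible, and there was no replicate check. Levels are UMIs, the molecule counts of the assay, added up within a cell class and given as counts per 1000000 UMIs of that class (CPM). Intervals are at 95% and reflect counting error alone. The Mettl14_cKO library had 89729527 UMIs in 9225 barcodes (median 3872 UMIs), against 111239295 UMIs in 10181 barcodes (median 9085) in the control library. Filtering left 7072 Mettl14_cKO and 9077 control cells. The epithelial-like cells among them numbered 6050 in Mettl14_cKO and 8706 in control, with medians of 8706.5 and 10405 UMIs. The libraries shared 33 barcodes, 15 of them among kept cells. Mettl14 itself had 417 UMIs (5.06 CPM) in Mettl14_cKO and 514 UMIs (4.76 CPM) in control epithelial-like cells. The labels do not name the deleted part of the gene and tags outside it would be counted in both genotypes, so this level does not check the deletion. Xist stood at 338 CPM in the Mettl14_cKO and 0.0629 CPM in the control library, and 4 Y-chromosome genes at 0.0780 and 104 CPM. Genotype and sex of the mice therefore cannot be told apart, which bears first on the X-linked members Nox1 and Cybb. Myeloid-like cells numbered 436 in the Mettl14_cKO library (215 neutrophil-like and 221 macrophage-like) and 10 in the control library, and Epcam reached at least 1406.5 CPM in each of the 12 Mettl14_cKO epithelial clusters with 50 or more cells. Cells were classed from clusters that were computed without the 9 members.

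Reference promoters from RefSeq (GRCm38.p6; 250 bases before to 50 after the start) were held for 8 of the 9 members, all but Ncf4. They are shown for the catalytic subunits Nox1 and Cybb, whose RNA levels in epithelial-like cells are given below. They are also shown for Duox2 and Duoxa2, which differed in opposite directions between the genotypes over all epithelial-like cells. Capitals mark matches on either strand to GAGGAA (the PU-box read by PU.1-type factors of blood cells), TATAAA (the TATA box), TGANTCA (an AP-1 site) and TTCNNNGAA (a STAT site).
Nox1: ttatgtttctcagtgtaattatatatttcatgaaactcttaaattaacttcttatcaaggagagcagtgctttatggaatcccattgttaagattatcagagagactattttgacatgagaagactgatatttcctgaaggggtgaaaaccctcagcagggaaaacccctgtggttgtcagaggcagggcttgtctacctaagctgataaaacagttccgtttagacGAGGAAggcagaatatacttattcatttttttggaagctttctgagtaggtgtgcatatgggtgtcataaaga
Cybb: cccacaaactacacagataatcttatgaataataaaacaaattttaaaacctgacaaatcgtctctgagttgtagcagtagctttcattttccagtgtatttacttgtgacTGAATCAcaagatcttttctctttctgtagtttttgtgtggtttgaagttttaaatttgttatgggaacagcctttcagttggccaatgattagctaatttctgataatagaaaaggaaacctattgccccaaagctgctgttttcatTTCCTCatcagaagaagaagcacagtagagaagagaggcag
Duox2: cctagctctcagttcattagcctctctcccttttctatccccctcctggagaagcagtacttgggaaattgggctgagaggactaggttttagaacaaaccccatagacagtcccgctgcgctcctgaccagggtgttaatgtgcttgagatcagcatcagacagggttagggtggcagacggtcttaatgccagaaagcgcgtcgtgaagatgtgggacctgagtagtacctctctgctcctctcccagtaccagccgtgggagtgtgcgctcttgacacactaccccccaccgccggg
Duoxa2: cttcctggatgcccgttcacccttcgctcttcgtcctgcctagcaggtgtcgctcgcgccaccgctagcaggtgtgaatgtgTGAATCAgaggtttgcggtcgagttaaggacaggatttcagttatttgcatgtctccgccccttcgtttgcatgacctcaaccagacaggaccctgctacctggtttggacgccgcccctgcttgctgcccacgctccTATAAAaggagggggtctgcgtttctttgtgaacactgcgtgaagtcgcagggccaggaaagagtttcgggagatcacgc
The windows lie at chrX:134111805-134112104 on the minus strand (Nox1), chrX:9469275-9469574 on the minus strand (Cybb), chr2:122298178-122298477 on the minus strand (Duox2) and chr2:122298650-122298949 on the plus strand (Duoxa2). In them, the Duoxa2 window held TATAAA 30 bases before the start and an AP-1 match, the Cybb window an AP-1 match and a GAGGAA read on the opposite strand, and the Nox1 window a GAGGAA. No match to these 4 motifs was found in the Duox2 window. Over all 32851 promoters of that table, GAGGAA was in 28.3%, TATAAA in 13.6%, TTCNNNGAA in 8.30% and TGANTCA in 7.81%, so each match is a description of the letters only.

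Ncf4 (p40phox, which binds a phosphoinositide of phagosome membranes) was counted in each epithelial class of the mutant library, at uneven levels. It was close to absent from the control epithelium. Epithelial-like cells held 6392 Ncf4 UMIs (77.5 CPM) in the Mettl14_cKO library, against 28 UMIs (0.259 CPM) in the control library, a ratio of 299 (207 to 450). Goblet-like cells, the mucus-secreting class, had 30.6 CPM in Mettl14_cKO and 0.247 CPM in control. Colonocyte-like cells, the absorptive class, had 68.8 CPM (762 UMIs) in Mettl14_cKO against 1 UMI in control. The cycling-like class had 23.6 CPM in Mettl14_cKO and 0.269 CPM in control. Tuft-like cells, the chemosensory class, had 17 UMIs (82.5 CPM) in 44 Mettl14_cKO cells and 0 in 48 control cells, at least 6.49-fold higher where 3 counts stand in for the 0. Those 17 UMIs lay in 4 of the 44 cells, so the tuft-like level rests on few cells. Enteroendocrine-like cells, which secrete hormones, had the lowest level of a named epithelial class in the Mettl14_cKO library, 10.8 CPM (22 UMIs), against 1 UMI in control. The CPM intervals of the 2 libraries did not overlap in any of these 5 classes, although the enteroendocrine-like ratio is known only within 3.82 to 974. These intervals treat each UMI as independent, and the 22 enteroendocrine-like UMIs lay in 8 cells. Intervals of the share of cells with a UMI did overlap in tuft-like cells, 2.53 to 21.7% in Mettl14_cKO and 0 to 7.40% in control. They also overlapped in enteroendocrine-like cells, 0.901 to 4.05% in Mettl14_cKO and 0.0112 to 2.44% in control. The unnamed epithelial cells, not drawn in the figures by class, had the highest level of an epithelial class. They held 4413 UMIs (150 CPM) in 1913 Mettl14_cKO cells, against 9 UMIs (1.09 CPM) in 1377 control cells. The cycling-like value rests on which clusters are called cycling: its log2 ratio of 4.28 was 0.20 under the strict cell filter. The classes were filled by partly different clusters in the 2 libraries. Colonocyte-like cells came mainly from cluster 12 in Mettl14_cKO and from clusters 10, 11, 14 and 16 in control. Goblet-like cells came from clusters 0, 2, 8 and 23 in Mettl14_cKO and from 5, 8, 17 and 18 in control. Cycling-like cells came from clusters 3 and 4 in Mettl14_cKO and from 3, 4 and 9 in control.

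**Figure D1:**
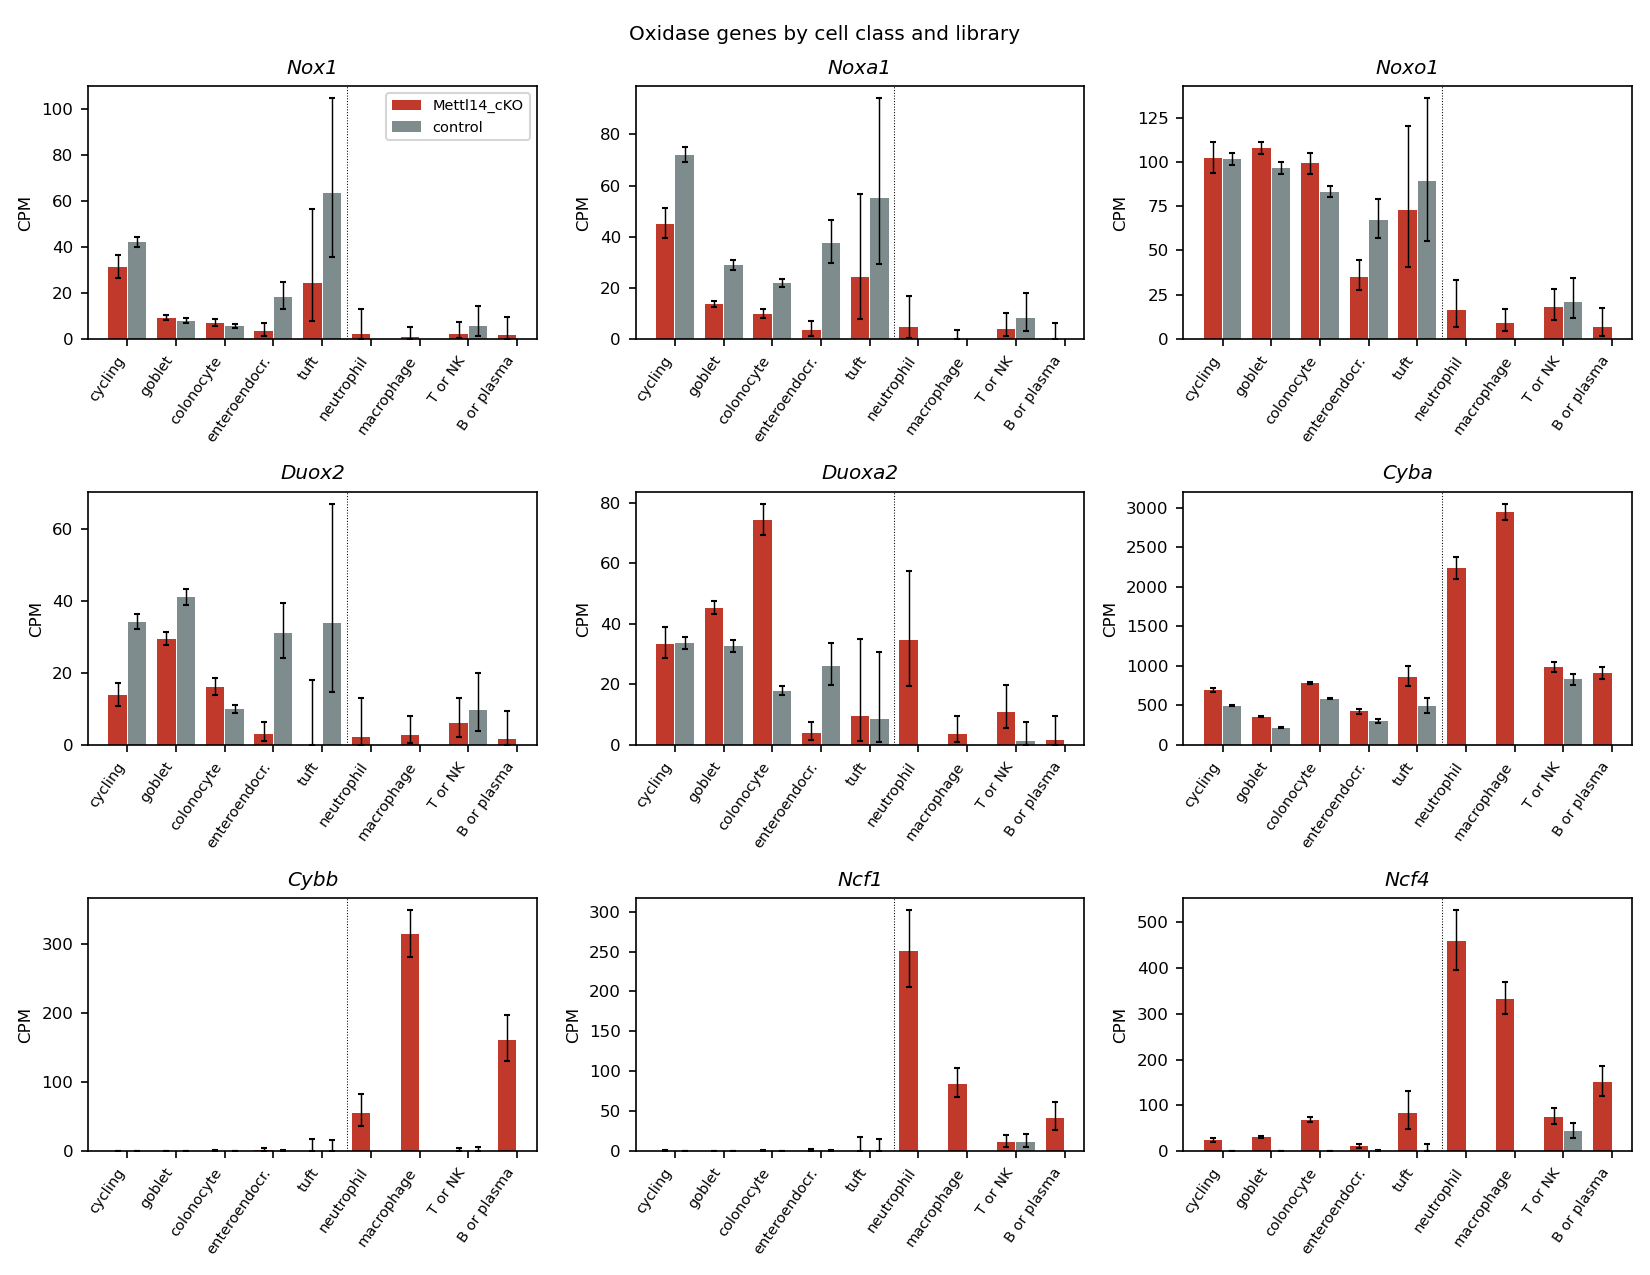
CPM of the 9 oxidase genes (y axis, linear, its own scale in each panel) in 9 cell classes (x axis), Mettl14_cKO in red to the left of control in grey; bars are summed counts of a class, lines are 95% Poisson intervals, and classes with under 20 cells are not drawn. Ncf4 has bars in all 5 named Mettl14_cKO epithelial classes (left of the dotted line), 10.8 to 82.5 CPM (the top value, of tuft-like cells, comes from 4 cells), and none visible in control, while Cybb and Ncf1 are visible in leukocyte classes only. The unnamed epithelial cells (150 CPM of Ncf4 in Mettl14_cKO) are not drawn.

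Where the same cluster held cells of both genotypes, Ncf4 differed in the same direction. In cluster 3, cycling-like cells of low depth, 550 Mettl14_cKO cells had 117 UMIs (46.6 CPM) and 483 control cells had 0, where 3 counts would be 2.25 CPM. In cluster 7, a shallow unnamed epithelial cluster led by nuclear and mitochondrial transcripts, 568 Mettl14_cKO cells had 61.8 CPM and 390 control cells had 0 UMIs, with a floor of 4.11 CPM. In cluster 15, enteroendocrine-like, Mettl14_cKO cells had 7.61 CPM and control cells 0.699 CPM (1 UMI). Cluster 4, the deeper cycling-like cluster, was low in both libraries, with 1.91 CPM (4 UMIs) in 67 Mettl14_cKO cells and 0.361 CPM (5 UMIs) in 961 control cells. Within the mutant epithelium Ncf4 thus spanned 1.91 to 220 CPM over 12 clusters, with a median of 23.0 CPM, against 0 to 1.27 CPM over 15 control clusters. The top of that range was cluster 1, 1053 unnamed epithelial cells led by Il4i1, Ccl20, Fabp5 and H2-M2, with 4037 of the 6392 UMIs. Without cluster 1, an alternative chosen after the data were seen, the Mettl14_cKO epithelial level was 36.7 CPM. Below it came colonocyte-like cluster 12 (74.0 CPM), cluster 7, cluster 3, goblet-like cluster 2 (39.6 CPM) and the unnamed cluster 19 (29.5 CPM). Mettl14_cKO cells that lay in clusters made up mainly of control cells were low, with 17 UMIs in 265 cells (2.53 CPM), against 0.262 CPM in the 7512 control cells of the same clusters.

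Myeloid cells, the textbook source of Ncf4, had more per UMI than the mutant epithelium as a whole. Neutrophil-like cells of the Mettl14_cKO library had 459 CPM (198 UMIs) and macrophage-like cells 333 CPM (358 UMIs), while the 10 macrophage-like control cells had 5 UMIs. B or plasma-like cells had 151 CPM in the Mettl14_cKO library, and 3 such control cells held 0 UMIs. T or NK-like cells had 74.1 CPM in Mettl14_cKO and 43.1 CPM in control. Of the 7118 Ncf4 UMIs in kept Mettl14_cKO cells, 89.8% lay in epithelial-like cells and 7.81% in myeloid-like cells. These classes held 96.3% and 1.76% of all UMIs of those cells, so the epithelial share of Ncf4 was below the epithelial share of all molecules. In the control library 43.8% of 64 Ncf4 UMIs were in epithelial-like and 48.4% in T or NK-like cells, which held 99.3% and 0.661% of all UMIs.

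Ncf4 was next set against 7 genes that mark leukocytes or belong to the phagocyte oxidase. Ptprc was used to call clusters epithelial, and Tyrobp, Fcer1g, Lyz2 and S100a9 are among the markers that named myeloid clusters. Ratios to these genes are therefore partly set by the naming of the classes. Cybb and Ncf1 were used neither in the clustering nor in the naming. Mettl14_cKO epithelial-like cells held 108 Ncf4 UMIs per Cybb UMI (83.9 to 142), against 1.06 in macrophage-like, 8.25 in neutrophil-like and 0.936 in B or plasma-like cells. Per UMI of Tyrobp, an adaptor of myeloid and NK receptors, they held 40.7 (34.7 to 48.0), against 0.104 in macrophage-like, 0.106 in neutrophil-like, 0.307 in T or NK-like and 1.38 in B or plasma-like cells. Per UMI of Ptprc, the pan-leukocyte marker CD45, they held 160 (117 to 224), against 1.48, 1.68, 0.257 and 1.29 in macrophage-like, neutrophil-like, T or NK-like and B or plasma-like cells. Of the 40 epithelial Ptprc UMIs, 6 were in tuft-like cells. Per UMI of Fcer1g the epithelium held 42.9 (36.5 to 50.8), against 0.0718, 0.128, 0.158 and 3.83 in macrophage-like, neutrophil-like, T or NK-like and B or plasma-like cells. The distance was smaller for other genes. Per Ncf1 UMI the epithelium held 21.3 Ncf4 UMIs (19.0 to 24.0), against 6.73 (3.55 to 14.1) in T or NK-like and 3.93 in macrophage-like cells. Per Lyz2 UMI it held 66.6 (54.4 to 82.3), against 0.0599 in macrophage-like and 0.389 in neutrophil-like cells. The Lyz2 value of T or NK-like cells, 24.7 (8.12 to 122), rests on 3 Lyz2 UMIs, and its interval overlaps with the epithelial interval. Per UMI of S100a9, a neutrophil calcium-binding protein, it held 6.55 (6.12 to 7.01), against 4.62 (2.67 to 8.51) in T or NK-like and 0.00689 in neutrophil-like cells, so the first 2 intervals overlap. Classes differed from these pooled values. Enteroendocrine-like cells held 7.33 per Cybb UMI (2.20 to 38.3) and 3.67 per Tyrobp UMI (1.44 to 11.1). The first interval includes the neutrophil-like value, and the second overlaps with that of B or plasma-like cells. Goblet-like cells held 106 and 19.6 per UMI of these genes, and colonocyte-like cells 254 and 76.2. Per S100a9 UMI these classes held 1.05, 2.60 and 2.66 in that order, and unnamed epithelial cells 19.5. The make-up of free RNA in the droplets was not measured, and its part in the epithelial counts was not tested. The 14 myeloid markers together reached 72.5 CPM in Mettl14_cKO epithelial-like cells and 13.3 CPM in control epithelial-like cells, against 136727 CPM in neutrophil-like and 22173 CPM in macrophage-like Mettl14_cKO cells. By class the myeloid sum was 25.1 CPM (cycling-like, 4 of 14 markers at 0), 37.6 CPM (goblet-like, 1 at 0), 189 CPM (colonocyte-like, 1 at 0), 35.2 CPM (enteroendocrine-like, 5 at 0) and 29.1 CPM (tuft-like, 11 at 0, among them Lyz2, Tyrobp and Csf1r) in Mettl14_cKO. In control cells it was 19.2, 16.3, 4.07, 10.0 and 0 CPM in the same order of classes. Markers of the 2 myeloid types went different ways in epithelial-like cells: the 8 neutrophil markers summed to 63.1 CPM in Mettl14_cKO and 0.630 CPM in control, and the 8 macrophage markers to 25.5 and 30.9 CPM. The macrophage sum did not follow the number of macrophage-like cells, 221 in Mettl14_cKO and 10 in control. C1qa, on the macrophage and myeloid lists, was among the 10 leading genes of cluster 9, an epithelial cluster of mainly control cells.

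**Figure D2:**
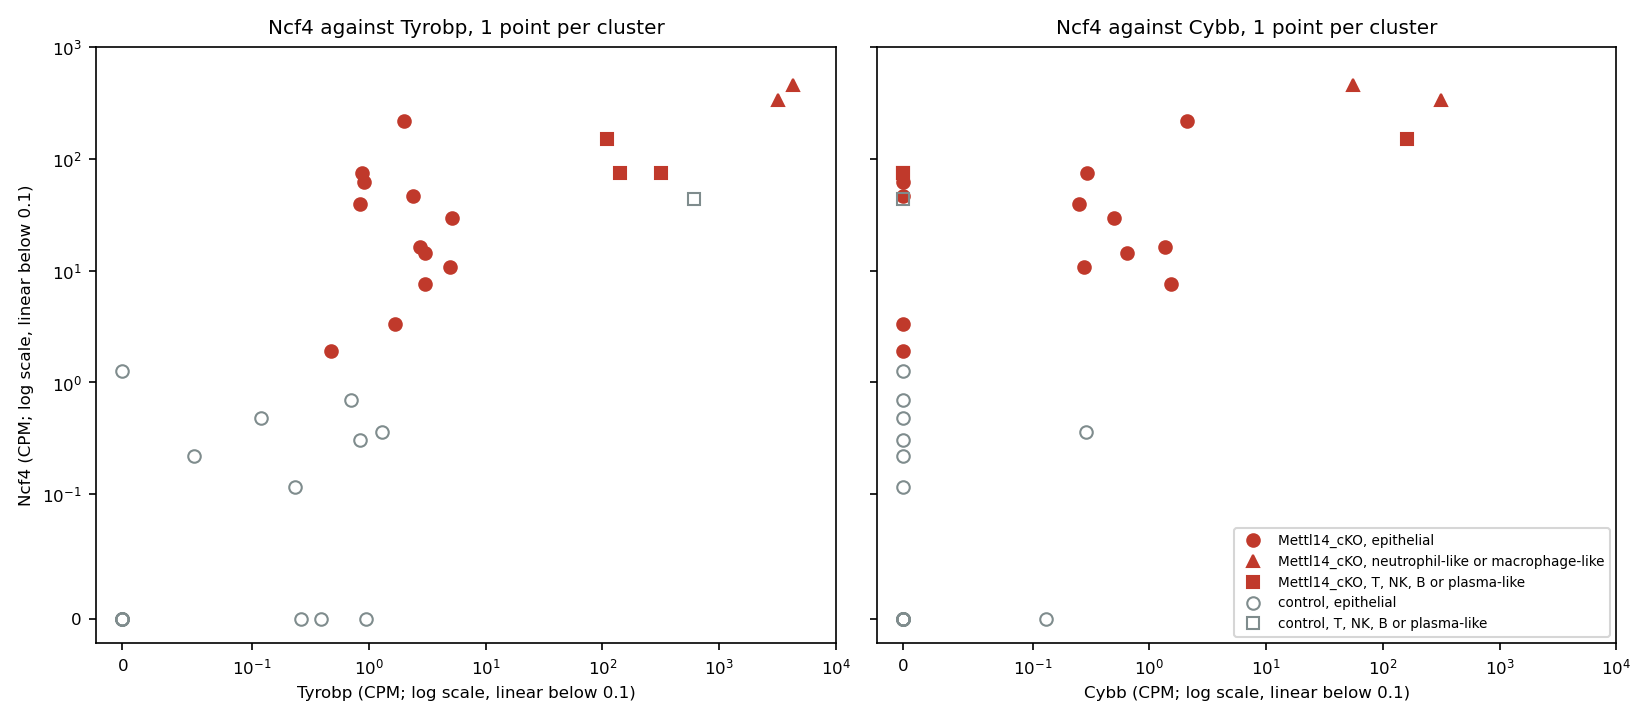
Ncf4 CPM (y axis) against Tyrobp CPM (left) and Cybb CPM (right), with 1 point per cluster of at least 50 cells in a library, on log axes that are linear below 0.1; filled red is Mettl14_cKO, open grey is control. The 12 Mettl14_cKO epithelial clusters span 1.91 to 220 CPM of Ncf4 at no more than 5.11 CPM of Tyrobp and 2.12 CPM of Cybb, whereas the neutrophil-like and macrophage-like points lie at 4313 and 3185 CPM of Tyrobp.

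Cell by cell, 1897 of the 6050 Mettl14_cKO epithelial-like cells (31.4%) and 23 of the 8706 control ones (0.264%) had an Ncf4 UMI. Of the 1897 cells, 99.1% also had an Epcam UMI, and 1344 (70.8%, 68.7 to 72.9) had no UMI of 7 immune genes, against 85.0% of the 4153 Mettl14_cKO epithelial-like cells without Ncf4. These 7 genes were Ptprc, Tyrobp, Fcer1g, Lyz2, S100a8, S100a9 and Cybb, and Ncf1 was not among them. The cells with Ncf4 were deeper, with a median of 17044 UMIs against 5028, and their median doublet score was 0.0529 against 0.0407. The 1344 cells held 3974 Ncf4 UMIs. Cybb was found in 36 of the 1897 cells (1.90%), against 0.313% of the cells without Ncf4. Ncf1 was found in 188 of the 1897 cells, against 17 of the 4153 cells without Ncf4. Rac2 was found in 1068 of the 1897 cells (56.3%), against 11.5% of the cells without Ncf4. These shares were not adjusted for the difference in depth. With every cell thinned to 1000 UMIs, 6.17% (5.57 to 6.81) of 5932 Mettl14_cKO and 0.0234% of 8529 control epithelial-like cells had an Ncf4 UMI. The thinned share was 38.8% in neutrophil-like, 25.9% in macrophage-like and 17.7% in B or plasma-like Mettl14_cKO cells, whose median depths before thinning were 1632, 4412 and 1589.5 UMIs. The T or NK-like class had 5.44% in Mettl14_cKO and 6.33% in control (median depths 1939 and 1624.5). T or NK-like cells hold Ncf4 in both libraries and are therefore no measure of free RNA for this gene. Among Mettl14_cKO epithelial classes the thinned share was 7.30% in colonocyte-like, 4.01% in cycling-like, 2.39% in goblet-like and 0.549% in enteroendocrine-like cells, and 0 of 37 tuft-like cells had a UMI, which allows a share of cells with a UMI of up to 8.11% at that depth. Before thinning, 9.09% of the tuft-like cells had one. The thinned share of the unnamed epithelial cells is not listed here, and before thinning 54.5% of them in Mettl14_cKO had an Ncf4 UMI.

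**Figure D3:**
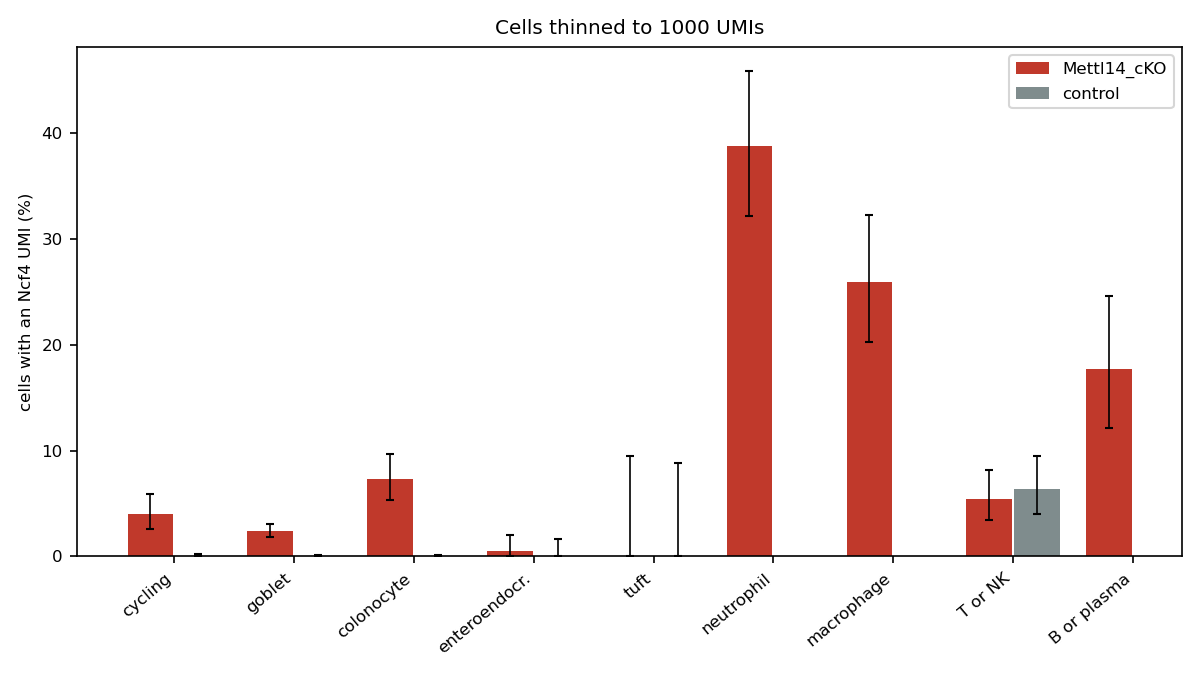
Percent of cells with at least 1 Ncf4 UMI (y axis) after thinning each cell to 1000 UMIs, by cell class (x axis), Mettl14_cKO in red to the left of control in grey, with exact 95% binomial intervals; classes with under 20 cells are not drawn. The control epithelial bars are at or near 0, while the Mettl14_cKO colonocyte-like bar (7.30%) is at about the height of the T or NK-like bars (5.44% and 6.33%). The unnamed epithelial cells are not drawn.

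The other phagocyte subunits did not follow Ncf4 in level. Cybb had 59 UMIs (0.715 CPM) in Mettl14_cKO and 5 UMIs (0.0463 CPM) in control epithelial-like cells, and 313 CPM in macrophage-like Mettl14_cKO cells. Ncf1 (p47phox, the phosphorylated organizer) had 300 UMIs (3.64 CPM) in Mettl14_cKO and 11 UMIs (0.102 CPM) in control epithelial-like cells. Of the 300, 267 were in cluster 1, at 14.5 CPM, against 250 CPM in neutrophil-like cells. Per Tyrobp UMI, Ncf1 stood at 1.91 (1.57 to 2.33) in the Mettl14_cKO epithelium, against 0.0266 in macrophage-like, 0.0580 in neutrophil-like and 0.375 in B or plasma-like cells. Cybb per Tyrobp UMI was 0.376 in the Mettl14_cKO epithelium, against 0.0983 in macrophage-like and 0.0129 in neutrophil-like cells but 1.47 in B or plasma-like cells. Cyba, the subunit that NOX1 and NOX2 share, was counted in every class. It was higher in the mutant epithelium, 730 CPM against 419 CPM in control, a ratio of 1.74 (1.72 to 1.76). Its ratio was 1.65 in goblet-like, 1.40 in cycling-like, 1.39 in enteroendocrine-like and 1.34 in colonocyte-like cells, and the level peaked in cluster 1 at 1466 CPM. The goblet-like value depended on the setting: its log2 ratio of 0.72 passed 1.5-fold in 4 of 8 alternatives and was 0.17 under the strict filter, 0.25 at Leiden resolution 2, 0.33 under the lenient filter and 0.41 with no doublets removed. In the 11 clusters made up mainly of control cells the direction was the opposite, 291 CPM (279 to 304) in 265 Mettl14_cKO cells against 417 CPM (413 to 421) in 7512 control cells. In the 6 mixed clusters it was 728 CPM in Mettl14_cKO and 455 CPM in control. T or NK-like cells had a Cyba ratio of 1.18 (984 CPM in Mettl14_cKO and 830 CPM in control). Macrophage-like Mettl14_cKO cells had 2942 CPM of Cyba. The neutrophil marker sum given above was higher in Mettl14_cKO and the macrophage marker sum lower, and their part in the Cyba ratios was not tested. The Cyba ratio stayed above 1.5 in epithelial-like cells under each alternative run, but in cycling-like cells its log2 ratio of 0.48 turned to -0.58 under the strict cell filter. In enteroendocrine-like cells its log2 ratio of 0.48 kept its sign in 7 of 8 alternatives. The exception, -7.06, came after the T or NK-like level was subtracted. T or NK-like cells hold Cyba themselves (984 CPM in Mettl14_cKO), so for this gene that setting is no measure of free RNA.

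Over all epithelial-like cells, 4 members were at least 1.5-fold higher on the CPM plus 1 scale in Mettl14_cKO (Ncf4, Ncf1, Cyba and Cybb), beside 14.2% of the 15888 genes measured, and 2 were at least 1.5-fold lower (Noxa1 and Duox2), beside 9.66%. The other 3, Nox1, Noxo1 and Duoxa2, lay between those limits. The median log2 ratio was 0.40 over the 9 members and 0.04 over all genes. Since the members were picked with these levels known, nothing is read from these counts.

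The NOX1 complex showed no common direction. Nox1 had 23.2 CPM in Mettl14_cKO and 18.9 CPM in control epithelial-like cells (ratio 1.23, 1.15 to 1.31). Among named classes with 100 or more cells it was highest in cycling-like cells, at 31.1 CPM in Mettl14_cKO against 42.1 CPM in control. The unnamed epithelial cells had 45.5 CPM in Mettl14_cKO and 16.5 CPM in control. Goblet-like cells had 9.35 against 8.02 CPM, and colonocyte-like cells 7.04 against 5.75 CPM, with both intervals of the ratio spanning 1. Its direction depended on the setting: over the alternatives its log2 ratio ran down to -0.02 in epithelial-like, -1.51 in goblet-like and -2.06 in colonocyte-like cells, and up to 0.38 in cycling-like cells. By cluster, Nox1 reached 56.9 CPM in Mettl14_cKO cluster 1 and 61.0 CPM in control cluster 4, and its lowest values were 2.49 and 1.28 CPM.

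Noxa1, the activator of NOX1, was lower in Mettl14_cKO in each of the 4 epithelial classes with 100 or more cells. Epithelial-like cells had 18.4 CPM in Mettl14_cKO and 41.4 CPM in control, 2.24-fold lower (2.12 to 2.38). The difference was 1.60-fold in cycling-like cells (45.1 CPM in Mettl14_cKO, 72.1 CPM in control), 2.12-fold in goblet-like cells (13.7 and 29.0 CPM) and 2.22-fold in colonocyte-like cells (9.84 and 21.8 CPM). In the shared clusters it was 21.5 against 83.3 CPM in cluster 3 and 25.2 against 87.6 CPM in cluster 7. Over the 6 mixed clusters together it was 20.6 CPM in Mettl14_cKO and 59.8 CPM in control. In the 11 clusters made up mainly of control cells it was instead higher in the 265 Mettl14_cKO cells, 49.0 CPM (43.9 to 54.6) against 40.5 CPM (39.3 to 41.8) in control cells. The cycling-like log2 ratio of -0.67 was -0.05 under the strict filter and -1.79 with no doublets removed. Tuft-like cells had 5 UMIs in Mettl14_cKO and 13 in control, an interval of the ratio that spans 1. Noxo1, the organizer that takes the place of Ncf1, was close to level, with 106 CPM in Mettl14_cKO and 94.2 CPM in control epithelial-like cells (ratio 1.12, 1.09 to 1.16). Its levels lay at 102 against 101 CPM in cycling-like, 108 against 96.3 CPM in goblet-like and 99.1 against 83.2 CPM in colonocyte-like cells. The coding gene Entpd8 overlaps Noxa1, Tbl3 overlaps Noxo1 and Cstf2 overlaps Nox1, each on the opposite strand. Whether counting used the strand is not stated, so reads of such pairs may not have been told apart.

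**Figure D4:**
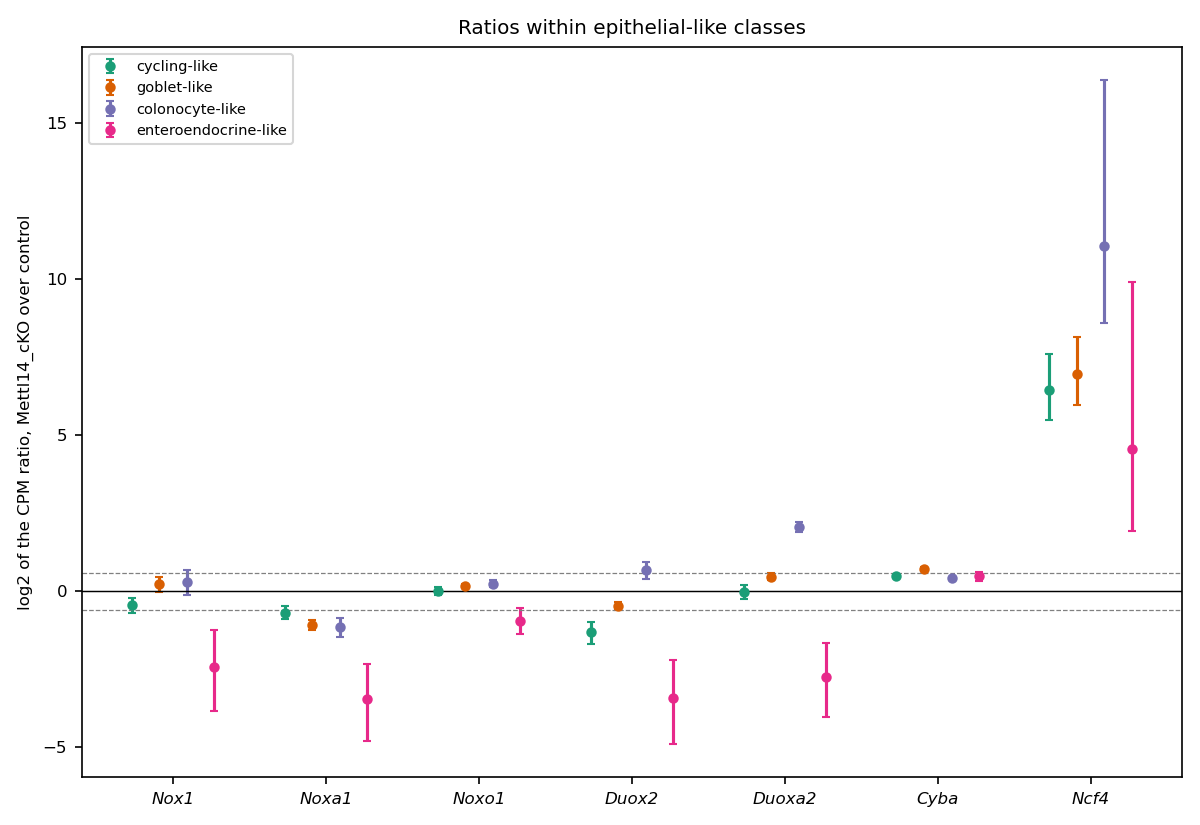
Log2 of the CPM ratio, Mettl14_cKO over control (y axis), for 7 members (x axis) in 4 epithelial-like classes (colours), with exact 95% conditional intervals; dashed lines mark a ratio of 1.5 in either direction. Noxa1 is below 0 in all 4 classes, Duox2 and Duoxa2 are above 0 in colonocyte-like and below 0 in enteroendocrine-like cells, and Ncf4 is above the upper line in all 4.

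The dual oxidase and its maturation factor differed in how they stood between genotypes, and the direction depended on the class. Duox2 had 17.7 CPM in Mettl14_cKO and 30.3 CPM in control epithelial-like cells, 1.71-fold lower (1.61 to 1.82). Duoxa2 had 37.4 CPM in Mettl14_cKO and 28.1 CPM in control (ratio 1.33, 1.27 to 1.40). In colonocyte-like cells both were higher in Mettl14_cKO, Duoxa2 at 74.3 against 17.9 CPM (ratio 4.15, 3.72 to 4.63) and Duox2 at 16.1 against 10.0 CPM (ratio 1.60, 1.32 to 1.93). Among the 4 control colonocyte-like clusters Duoxa2 spanned 8.68 CPM (cluster 10) to 54.2 CPM (cluster 16), so the control class itself was uneven, and Mettl14_cKO cluster 12 had 77.8 CPM. In goblet-like cells Duox2 was 29.5 against 40.9 CPM, 1.39-fold lower, and Duoxa2 45.3 against 32.6 CPM (ratio 1.39). The goblet-like log2 ratio of Duox2, -0.46, turned to 0.65 at Leiden resolution 2, 0.55 under the strict filter and 0.19 after thinning, and that of Duoxa2, 0.46, was 1.61 at resolution 2 and 1.90 under the strict filter. In cycling-like cells Duox2 was 2.49-fold lower (13.7 CPM in Mettl14_cKO, 34.2 CPM in control) and Duoxa2 had 33.5 CPM in Mettl14_cKO and 33.8 CPM in control. The near-equal Duoxa2 value did not hold in all settings, with log2 ratios of -0.9995 at resolution 2, -0.97 with no doublets removed and 0.50 under the strict filter. Within cluster 3 both were lower in Mettl14_cKO, Duox2 at 9.95 against 37.5 CPM and Duoxa2 at 11.1 against 37.5 CPM. In cluster 4 Duoxa2 was instead 56.7 CPM in Mettl14_cKO and 27.9 CPM in control. In the clusters made up mainly of control cells Duox2 had 28.9 CPM in Mettl14_cKO and 30.2 CPM in control cells, and Duoxa2 48.7 and 28.1 CPM. The Ncf4-rich cluster 1 was among the lowest for the pair, with 2.88 CPM of Duox2 and 4.90 CPM of Duoxa2. On the genome (GRCm38, GENCODE M21) the 2 genes lie head to head on chromosome 2, Duox2 at 122279247 to 122298449 on the minus strand and Duoxa2 at 122298900 to 122302885 on the plus strand, 450 bp apart. Their paralogs Duox1 and Duoxa1 had 10 and 13 UMIs in Mettl14_cKO and 16 and 26 UMIs in control epithelial-like cells.

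In enteroendocrine-like cells 5 members were lower in Mettl14_cKO, and whether their ratios differ from those of other classes was not tested. Noxa1 had 7 UMIs (3.42 CPM) in 385 Mettl14_cKO cells, against 82 UMIs (37.4 CPM) in 226 control cells. Duox2 had 2.93 against 31.0 CPM, Duoxa2 3.91 against 26.0 CPM, Nox1 3.42 against 18.2 CPM and Noxo1 35.2 against 67.4 CPM. T or NK-like cells were read as a guide to the background of epithelial genes. They had 2.003, 4.01, 6.01 and 11.02 CPM of Nox1, Noxa1, Duox2 and Duoxa2 in Mettl14_cKO. The Mettl14_cKO enteroendocrine-like intervals of these 4 genes overlapped with the T or NK-like intervals. The Duoxa2 value rests on 11 UMIs in 2 of 393 T or NK-like cells, so it is not an even level over that class. Whether these T or NK-like counts are free RNA was not tested. Noxo1 had 18.03 CPM (10.7 to 28.5) in the Mettl14_cKO T or NK-like cells, an interval that overlaps slightly with that of the enteroendocrine-like value (27.5 to 44.3 CPM). In control T or NK-like cells Nox1, Noxa1, Duox2 and Duoxa2 had 5.56, 8.34, 9.73 and 1.39 CPM, all below the control enteroendocrine-like values. Tuft-like cells had 24.3 against 63.6 CPM of Nox1, 24.3 against 55.1 CPM of Noxa1, and 0 against 8 UMIs of Duox2. In the enteroendocrine-like class 5 of 7 measured members were at least 1.5-fold lower, beside 18% of 10902 genes, and 1 was higher (Ncf4), beside 28.4%. After thinning to 1000 UMIs the log2 ratio of Noxo1, -0.92, was -0.08 and no longer past 1.5-fold, and that of Duoxa2, -2.46, was -0.64, while that of Nox1, -2.12, was -0.74 with no doublets removed. In the other classes the counts of higher and lower members were 1 and 2 of 7 in cycling-like cells (14.8% and 10.3% of all genes), 2 (Ncf4 and Cyba) and 1 of 9 in goblet-like cells (14.7% and 15.5%), and 3 and 1 of 7 in colonocyte-like cells (25.5% and 15.6%).

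Of 19 further genes of the oxidase pathway, 15 had at least 10 UMIs in epithelial-like cells of a library, and 3 were at least 1.5-fold higher and 0 lower in Mettl14_cKO, beside 14.2% and 9.66% of all genes. Rac2, the GTPase of the leukocyte oxidase, had 81.5 CPM in Mettl14_cKO and 0.611 CPM in control (ratio 133, 105 to 173). Lpo, a peroxidase that uses hydrogen peroxide, had 22.8 against 11.3 CPM, and Sh3pxd2b, an organizer-like scaffold, 3.42 against 1.41 CPM. Rac1, the GTPase that serves NOX1, was 223 CPM in Mettl14_cKO and 273 CPM in control, and Rap1a 96.3 against 134 CPM. The other 10 measured genes lay between the limits, among them P4hb, Prkcd, Pak1, Vav1 and Vav3, and Nox3 and Nox4 had 0 UMIs. The median log2 ratio of the 15 genes was -0.03. Among 15 genes that remove peroxide or superoxide, 14 were measured, of which 1 was higher and 1 lower, beside the same 14.2% and 9.66%. Gpx2, the gastrointestinal glutathione peroxidase, was higher (3127 CPM in Mettl14_cKO, 1624 CPM in control) and Cat, catalase, lower (8.30 against 17.0 CPM). The other 12, which include Gpx1, Prdx1, Prdx6, Sod1, Sod2 and Txnrd1, lay within 1.5-fold.

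Rac2 and Ncf4 are also neighbours, a point followed after the values were seen. Ncf4 lies on chromosome 15 at 78244801 to 78262580 on the plus strand and Rac2 at 78559167 to 78572783 on the minus strand, and 14 genes fall within the 328 kb from the start of Ncf4 to the end of Rac2. Next to Ncf4 lie Csf2rb2 and Csf2rb, the beta subunits of the receptors for IL-3, IL-5 and GM-CSF. Csf2rb had 649 UMIs in Mettl14_cKO and 1 UMI in control epithelial-like cells. Csf2rb2 had 182 UMIs in Mettl14_cKO and 0 in control, at least 79.4-fold higher against 3 counts. The 2 are close paralogs, so the split of reads between them is uncertain, although none of the 441 words of 60 bases in the last 500 bases of either transcript was found in a transcript of another gene. Not every gene of the interval was higher: Tst had 271 CPM in Mettl14_cKO and 274 CPM in control, Mpst 83.3 and 190 CPM, Kctd17 13.1 and 8.98 CPM, and C1qtnf6 75.5 and 26.5 CPM. The other 6 had at most 21 UMIs in Mettl14_cKO and 15 UMIs in control.

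**Figure D5:**
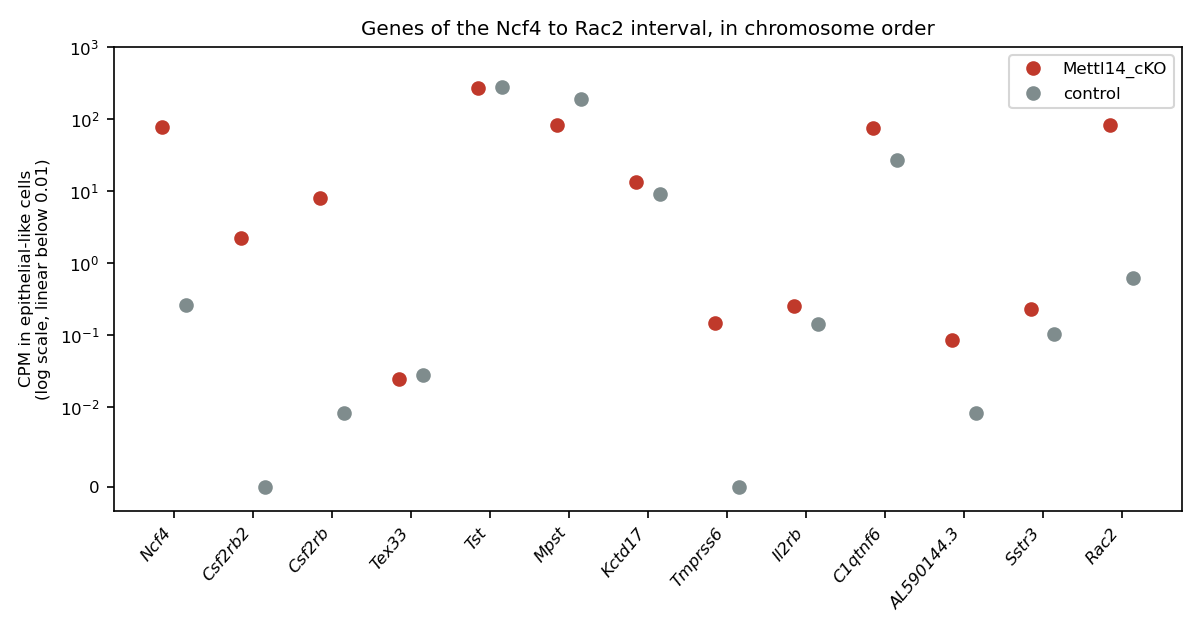
CPM in epithelial-like cells (y axis, log scale, linear below 0.01) of the genes from Ncf4 to Rac2 with at least 1 UMI, in chromosome order (x axis), Mettl14_cKO in red to the left of control in grey. Ncf4, Csf2rb2, Csf2rb and Rac2 are far apart between the libraries, while Tst lies at 271 and 274 CPM and Mpst is lower in Mettl14_cKO.

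The genes whose levels ran most like those of a member were ranked by Pearson's r of log2(CPM + 1) over 15 groups of class and library, which share libraries and depth and are described without a test. For Ncf4 they were Snx20 (0.96), Nfkbie (0.96) and Rac2 (0.94) among 8780 genes. For Nox1 they were Clca3b (0.95), Mlec (0.94) and the stem cell transcription factor gene Ascl2 (0.92), and for Duox2 they were Cbs (0.93), Muc4 (0.92) and Mpdu1 (0.91). Over the 12 Mettl14_cKO epithelial clusters alone the nearest to Ncf4 were H2-M2 (0.98), a class Ib MHC gene, Ubd (0.96), a ubiquitin-like modifier, and Med11 (0.96). In epithelial-like cells H2-M2 had 43.7 CPM in Mettl14_cKO and 0.528 CPM in control, and Ubd 105 and 0.787 CPM. The core of the N6-methyladenosine motif, GGACT on the sense strand, occurred 3 times in the longest coding transcript of Ncf4 (GENCODE M21), 2.05 per kb, against a median of 1.01 per kb over 21901 coding genes. Over the other members it ranged from 1.05 per kb (Cybb) to 2.69 per kb (Cyba), with 2.23 in Noxo1 and 1.86 in Noxa1. A motif count says nothing of methylation, which was not measured here.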

How the data were processed

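The authors deposited raw counts of UMIs for each gene and barcode. Cell Ranger made them, as version 3.1.0 per the file headers but 3.0.0 in the submitters' processing notes, which list Seurat 3 too. No source used here gives the build, annotation or kit end. Barcodes with under 500 genes or with 25% or more mitochondrial UMIs were dropped (2100 Mettl14_cKO, 1027 control). Scrublet's automatic threshold marked 1 and 0 cells, so cells scoring at least 0.25 were removed (53 and 77). With scanpy 1.11.5 (Python 3.11.15), 2000 variable genes without the members, 30 components and 15 neighbours, Leiden clustering at resolution 1 was run on both libraries together. Clusters were named where at least 3 markers of a class were among the 100 leading genes and 1 among the first 10, with Epcam at least 500 CPM and 20 times Ptprc for epithelium. These naming rules were set after the data were seen. Counts were summed per class and library, with exact Poisson, conditional binomial and binomial intervals. UMIs are molecules, but intervals and floors of 3 counts cover counting error only. A gene was measured with 10 UMIs in a library; 1.5-fold refers to CPM plus 1. The ratio step was tested on simulated data. Named genes were all members, the pathway genes (1 listed gene is not reported here) and the 3 most like Ncf4, Nox1 and Duox2 (at least 20 CPM, groups of 50 cells). Members and lists were chosen with earlier results of these data known. Alternatives were other cell filters, no doublet removal, resolution 2, classes from markers in each cell, thinning, scaling, pseudocount and subtracting the level of T or NK-like cells.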

Additional observations from a re-analysis of the deposited data

Results flagged for a closer look

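In 2 members the difference between genotypes was at least 1.5-fold in opposite directions in different epithelial classes, and the difference between classes was not tested. Duox2 had a log2 ratio, Mettl14_cKO over control, of 0.63 in colonocyte-like cells, against -1.26 in cycling-like and -3.02 in enteroendocrine-like cells. For Duoxa2 the value was 1.99 in the colonocyte-like class and -2.46 in the enteroendocrine-like class. The signs held over the alternatives but the sizes did not: Duoxa2 spanned 1.60 to 3.18 in colonocyte-like and -4.74 to -0.64 in enteroendocrine-like cells, and Duox2 spanned 0.38 to 1.79, -2.02 to -0.60 and -4.82 to -1.66 in colonocyte-like, cycling-like and enteroendocrine-like cells. Smaller differences of mixed direction were seen in Noxo1, with a ratio of 1.19 (1.11 to 1.28) in colonocyte-like and 0.522 (0.388 to 0.696) in enteroendocrine-like cells. Nox1 had a log2 ratio of -2.12 in enteroendocrine-like and -0.42 in cycling-like cells. Its value was 0.20 in goblet-like and 0.25 in colonocyte-like cells, where the intervals of the ratio span 1.

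The barcodes removed by the filter on genes and mitochondrial UMIs, which no comparison used, also held Ncf4. It stood at 51.4 CPM (167 UMIs, 43.9 to 59.9) in 2100 Mettl14_cKO barcodes and at 0 UMIs in 1027 control barcodes, where 3 counts would be 3.43 CPM. In the same barcodes Tyrobp had 222 CPM in Mettl14_cKO and 6.87 CPM in control, and Epcam 987 and 3038 CPM, so they mix cell types.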

How the results depend on the processing

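Ncf4 stayed higher in Mettl14_cKO epithelial-like cells under each of 10 other settings. Its log2 ratio was 5.96, and it was 5.76 with classes from markers in each cell, 6.28 with scaling without mitochondrial and the 50 most abundant genes, 3.09 with a pseudocount of 10 CPM and 4.91 without cluster 1. Its Mettl14_cKO level of 77.5 CPM became 81.6 (strict cell filter), 66.9 (markers in each cell), 71.0 (thinned to 1000 UMIs), 104 (other scaling) and 36.7 CPM (without cluster 1). The share of Mettl14_cKO cells with a UMI, 6.17%, was 7.65% with the strict filter, 5.26% with markers in each cell, 12.1% thinned to 2000 UMIs and 31.4% unthinned. In myeloid-like cells Ncf4 per Cybb UMI, 1.54, was 1.21 with the strict filter and 1.28 with markers in each cell; the epithelial value of 108 stayed within its interval in the alternatives run, 118 without cluster 1 included. Of the other pathway genes, 3 were higher and 0 lower, but 5 were higher and 1 lower after thinning to 1000 UMIs, and 1 was lower after subtracting the T or NK-like level. Of 16 class ratios past 1.5-fold, 15 kept their sign throughout and 1, Ncf4 in enteroendocrine-like cells, came to 0 after that subtraction. T or NK-like cells hold Ncf4 themselves, so for this gene the subtraction is no measure of free RNA. The cycling-like Ncf4 log2 ratio, 4.28, was 0.20 under the strict filter, which changes the clusters in that class. Among ratios within 1.5-fold, 5 of 14 kept their sign throughout. Noxa1 kept its direction in all 5 groups, but its cycling-like log2 ratio of -0.67 was -0.05 under the strict filter and so within 1.5-fold. Duox2 was lower in epithelial-like, cycling-like and enteroendocrine-like cells throughout, though its epithelial log2 ratio of -0.74 was -0.49 after thinning and -0.54 with a pseudocount of 10 CPM, short of 1.5-fold. The causes were not tested. No paired analysis was possible because each genotype had 1 library, and for the same reason no replicate could be left out. Depth limits the low members: Cybb and Ncf1 in named epithelial classes rest on 13 UMIs or fewer.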
